A study of Mus musculus with 6 samples.

Results

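C-type lectin receptors are cell surface proteins that bind sugars, lipids and other structures on microbes and on damaged or neighbouring cells. The set described here holds 10 of the 40564 genes in the deposited tables, namely Clec1b, Clec4e, Clec4d, Clec4n, Clec7a, Clec4a1, Clec4a2, Clec4a3, Clec12a and Clec5a, and all 10 had enough counts to be tested. The genes were chosen by name as receptors of the Dectin and Mincle type, except that Clec1b was selected on its difference between Cis_KO and WT in these same libraries. The others were picked with results of these libraries in view, so that the levels below are a description, and adjusted p-values are those of the fit over all 16765 tested genes.

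Activating members carry an ITAM-like motif of their own or pair with the adaptors FcRgamma (Fcer1g) or DAP12 (Tyrobp). Once a ligand binds, the kinase SYK is recruited, and in myeloid cells the adaptor CARD9 then drives cytokine and chemokine genes. Inhibitory members carry an ITIM motif that recruits phosphatases, and in the lung these receptors are known from alveolar macrophages and other phagocytes that meet fungi and mycobacteria.

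The RNA came from untreated cells washed out of the mouse lung by bronchoalveolar lavage (BALF cells), in 3 genotypes of 2 libraries each. Cis_Stat6_DKO is labelled as a double knockout of CIS, the cytokine signalling inhibitor encoded by Cish, and of the transcription factor STAT6. Cis_KO is labelled as a knockout of CIS alone, and WT as wild type; the labels give no strain, age, sex or promoter, and no statement of how either gene was disrupted. The labels do not say that the 2 libraries of a genotype came from separate animals, so p-values measure only the spread between these samples.

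The libraries held 50762354 to 65937118 counts. Cish stood at 1.72 and 5.04 CPM (counts scaled to the library total and to TMM factors) in Cis_Stat6_DKO, at 4.35 and 3.52 CPM in Cis_KO, and at 46.2 and 56.2 CPM in WT. Stat6 stood at 31.6 and 25.5 CPM in Cis_Stat6_DKO, at 264 and 221 CPM in Cis_KO, and at 233 and 227 CPM in WT. Both targeted genes thus followed the labels. All 16 alveolar macrophage markers in the tables had counts in every library, as did all 9 epithelial markers. The former summed to 35770 and 45300 CPM in Cis_Stat6_DKO, 22720 and 18900 CPM in Cis_KO, and 18550 and 26970 CPM in WT. Without Chil3 the sums were 13490 and 14180, 11150 and 12020, and 9777 and 11960 CPM. Of the 16, 9 were higher and 3 lower without overlap in Cis_Stat6_DKO than in Cis_KO, beside 27.9% and 22.5% of all tested genes. The part of macrophage RNA in the receptor levels was not tested. Cis_KO replicate 2 stood apart, with 15855 genes holding a count against 19641 to 20431 in the other libraries, and with 3.29% of its counts in haemoglobin genes against at most 0.0366%. In bulk RNA, fewer cells of a type and less RNA per cell cannot be told apart.

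The genes that differed most between genotypes were Clec4e, Clec4d and Clec5a, which were low in Cis_KO and high in Cis_Stat6_DKO, and Clec1b, which was high in Cis_KO. Their promoters are shown first, because these 4 genes carry the pattern. The sequences are from RefSeq on GRCm38.p6, run from 250 bases before to 50 bases after the annotated start, and are written 5′ to 3′ on the strand of the gene. The starts lie within 16 bases of the gene starts in the deposited tables. Capitals mark a match to 1 of 3 motifs searched on both strands: the STAT type TTCNNNGAA, the STAT6 type with 4 bases between TTC and GAA, and the C/EBP type TTGCNNAA.
Clec1b, chr6:129397047-129397346, plus strand: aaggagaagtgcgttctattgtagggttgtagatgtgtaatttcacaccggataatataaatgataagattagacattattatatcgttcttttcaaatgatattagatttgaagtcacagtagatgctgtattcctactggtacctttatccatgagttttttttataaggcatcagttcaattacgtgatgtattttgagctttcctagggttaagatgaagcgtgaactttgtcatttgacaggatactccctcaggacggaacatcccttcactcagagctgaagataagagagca
Clec4e, chr6:123289822-123290121, minus strand: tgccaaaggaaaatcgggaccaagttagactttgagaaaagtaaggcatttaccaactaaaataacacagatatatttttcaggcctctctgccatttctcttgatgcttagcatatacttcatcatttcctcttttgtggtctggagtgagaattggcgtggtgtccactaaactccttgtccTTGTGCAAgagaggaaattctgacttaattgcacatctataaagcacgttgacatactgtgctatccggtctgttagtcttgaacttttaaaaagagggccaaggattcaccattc
Clec4d, chr6:123261857-123262156, plus strand: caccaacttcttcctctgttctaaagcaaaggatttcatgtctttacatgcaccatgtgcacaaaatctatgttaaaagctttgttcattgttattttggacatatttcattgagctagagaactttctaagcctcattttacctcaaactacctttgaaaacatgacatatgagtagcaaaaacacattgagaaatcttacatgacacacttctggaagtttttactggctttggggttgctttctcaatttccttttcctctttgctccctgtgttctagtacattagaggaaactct
Clec5a, chr6:40585756-40586055, minus strand: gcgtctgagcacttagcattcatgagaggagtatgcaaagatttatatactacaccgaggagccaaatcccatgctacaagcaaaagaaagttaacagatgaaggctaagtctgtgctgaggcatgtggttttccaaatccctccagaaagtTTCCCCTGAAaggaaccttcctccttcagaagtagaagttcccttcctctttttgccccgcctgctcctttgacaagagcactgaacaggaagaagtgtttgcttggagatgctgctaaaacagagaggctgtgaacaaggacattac

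The Clec4e window held the C/EBP type match TTGTGCAA, which begins 66 bases before the start and fits the motif when read on the opposite strand. C/EBP beta is known to induce Clec4e in mouse macrophages. The Clec5a window held the STAT6 type match TTCCCCTGAA, which begins 98 bases before the start. No match lay in the Clec1b or Clec4d window. Of all 32544 RefSeq promoters of the same length, 8.33% held TTCNNNGAA, 6.98% the STAT6 type and 10.8% TTGCNNAA, so each match is common and is given as a description. Among the other members, 5 of which are in the table, the 2 Clec7a windows and Clec4a1 held the STAT6 type, Clec4a2 held TTCAAAGAA and Clec12a held TTGCGCAA, the last pair in windows whose start lies 16262 and 7553 bases from the gene start in the deposited tables. Both matches in the printed windows lie in the 150 bases before the start, where 5.48% of promoters held TTGCNNAA and 3.2% the STAT6 type.

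By level per transcript length, in FPKM, Clec4n and Clec7a led the set in every genotype. Clec4n, the gene of Dectin-2, a receptor of fungal mannans, stood at 648 and 683 FPKM in Cis_Stat6_DKO, at 353 and 285 FPKM in Cis_KO, and at 535 and 592 FPKM in WT. Clec7a, the gene of Dectin-1, a receptor of beta-glucans with an ITAM-like motif of its own, stood at 662 and 541 FPKM in Cis_Stat6_DKO, at 501 and 319 FPKM in Cis_KO, and at 353 and 398 FPKM in WT. Together these genes gave 75.4% to 81.8% of the FPKM sum of the 10 genes in each library. That sum was 1632 and 1623 FPKM in Cis_Stat6_DKO, 1044 and 743 FPKM in Cis_KO, and 1133 and 1234 FPKM in WT.

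In WT the order by mean FPKM was Clec4n (564 ± 40.0, SD, n = 2), Clec7a (376 ± 32.1), Clec4a3 (76.5 ± 5.25), Clec4e (57.5 ± 1.90), Clec4d (56.9 ± 1.08), Clec4a2 (28.0 ± 3.74), Clec5a (13.8 ± 1.75), Clec12a (10.2 ± 2.38), Clec4a1 (0.765 ± 0.332) and Clec1b (0.255 ± 0.0212). Clec4e and Clec4d overlapped there, and every other neighbour in that order was apart in both libraries. In Cis_KO, Clec4e held rank 7 with 6.95 ± 2.97 FPKM and Clec1b rank 9 with 3.38 ± 1.28 FPKM, above Clec4a1 (1.495 ± 0.743 FPKM). Clec7a and Clec4n overlapped in Cis_KO, as did each neighbouring pair from Clec4d to Clec12a. In Cis_Stat6_DKO, Clec4d held rank 3 with 116 ± 34.2 FPKM, and overlapped Clec4a3 (89.9 ± 6.27 FPKM), which in turn overlapped Clec4e (73.8 ± 24.7 FPKM). Clec5a held rank 6 there with 44.1 ± 10.9 FPKM, above Clec4a2 in both libraries.

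**Figure D1:**
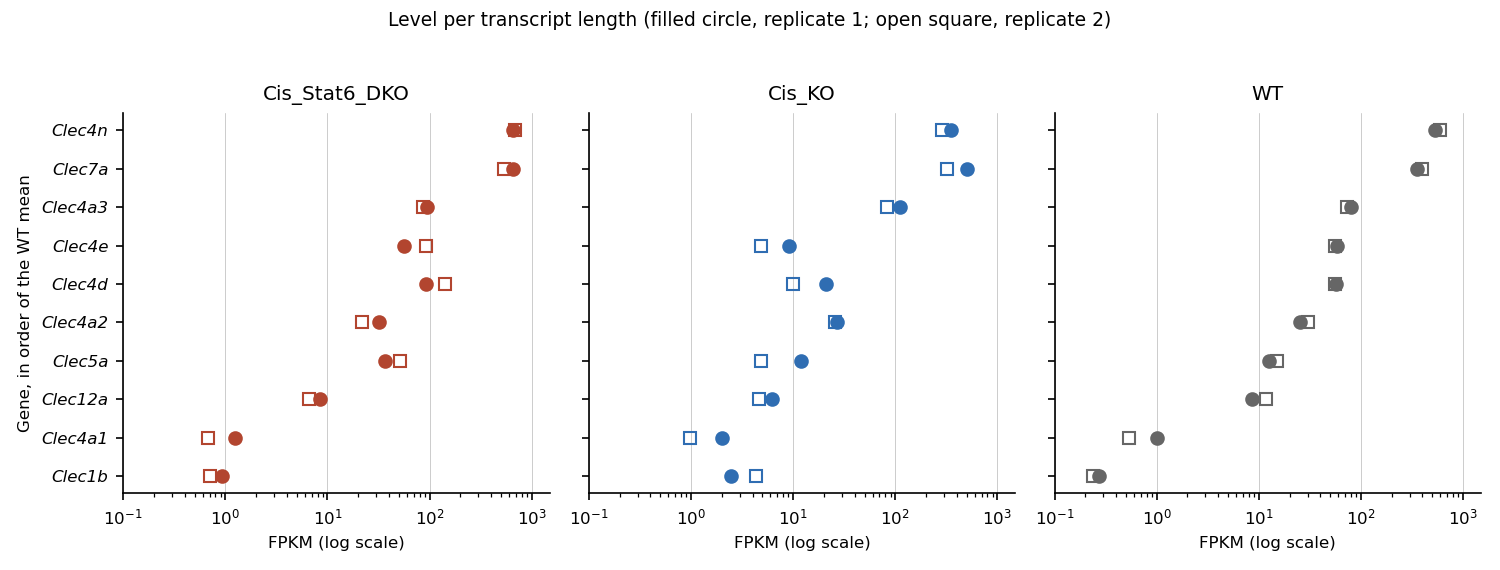
FPKM of the 10 receptor genes (log axis, genes in order of the WT mean) in Cis_Stat6_DKO, Cis_KO and WT, with 1 point per library. Clec4n and Clec7a lie at the top in each panel, between 285 and 683 FPKM, and Clec4e lies at 4.85 and 9.05 FPKM in Cis_KO against 56.2 FPKM or more in the other libraries.

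Over the set, edgeR's quasi-likelihood test with Benjamini-Hochberg adjustment called 2 of 10 genes in Cis_Stat6_DKO against Cis_KO (Clec4e and Clec4d, both higher), where 0.358% of all tested genes were called. In Cis_KO against WT it called 2 of 10 (Clec1b higher, Clec4e lower), with 0.274% of all genes called; Clec1b was selected on this comparison, and nothing is read from that count. In Cis_Stat6_DKO against WT edgeR called 0 of 10, with 0.131% of all genes called. In this last comparison 4 members had an unadjusted edgeR p under 0.05, as did 5.36% of all tested genes. DESeq2 called 3 members (Clec1b, Clec7a and Clec5a) and 323 of all genes. With limma-voom 0 members and 26 of all genes were called. The comparisons share libraries, those of Cis_KO entering the first and the second, so their values are given side by side and not correlated.

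Counted by libraries that do not overlap, 6 of the 10 genes were higher and 2 lower in Cis_Stat6_DKO than in Cis_KO, where 27.9% of all tested genes were higher and 22.5% lower. The median log2 fold change of the 10 genes was 0.48, against 0.05 for all tested genes. In Cis_KO against WT, 3 were higher and 5 lower, beside 21.4% and 25.9% of all genes, and the median was -0.32 against -0.05. In Cis_Stat6_DKO against WT, 6 were higher and 1 lower, beside 23.3% and 23.5% of all genes, and the median was 0.40 against -0.0027.

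**Figure D2:**
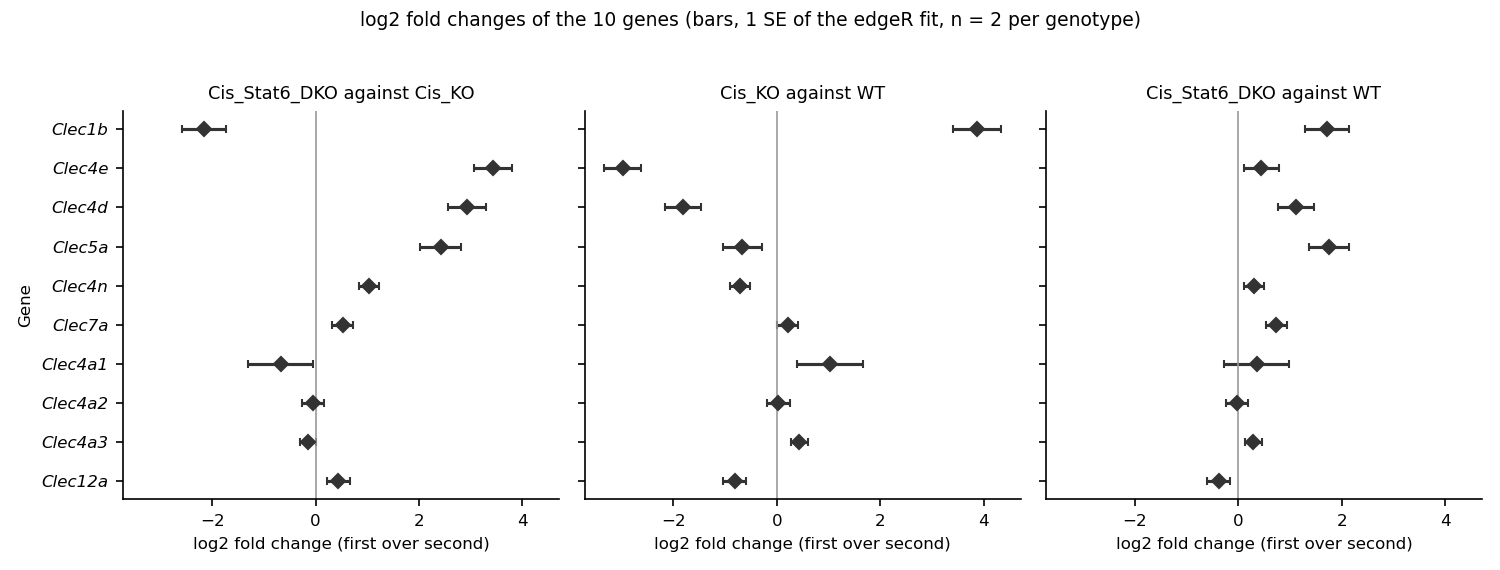
log2 fold changes (horizontal axis, first genotype over second) of the 10 genes with 1 SE of the edgeR fit, in 3 comparisons of 2 libraries against 2. Clec4e, Clec4d and Clec5a lie at 2.42 to 3.43 in Cis_Stat6_DKO against Cis_KO and below 0 in Cis_KO against WT, and Clec1b lies the other way in both.

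Clec4e encodes Mincle, which binds mycobacterial trehalose dimycolate and signals through FcRgamma. It stood at 287 and 541 CPM in Cis_Stat6_DKO, at 45.8 and 31.1 CPM in Cis_KO, and at 308 and 298 CPM in WT. Both Cis_KO libraries lay below all 4 others, while Cis_Stat6_DKO replicate 1 lay below and replicate 2 above the WT libraries. Clec4e rose 10.8-fold in Cis_Stat6_DKO relative to Cis_KO (log2 fold change 3.43 ± 0.36 SE, edgeR adjusted p = 0.0308). Cis_KO was 7.89-fold lower than WT (-2.98 ± 0.36), and Cis_Stat6_DKO was at 0.45 ± 0.33 against WT.

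Without Cis_KO replicate 2 its log2 fold change was 3.17 ± 0.37 in Cis_Stat6_DKO against Cis_KO and -2.73 ± 0.36 in Cis_KO against WT. Clec4e is also known from neutrophils, and the summed level of 14 neutrophil markers was 256 and 297 CPM in Cis_Stat6_DKO, 157 and 901 CPM in Cis_KO, and 233 and 222 CPM in WT. Without Ltf and Csf3r, the most abundant of them, the other 12 summed to 83.3 and 197 CPM in Cis_Stat6_DKO, 15.97 and 556 CPM in Cis_KO, and 26.4 and 23.9 CPM in WT. Of the 13 neutrophil markers tested, 7 were higher and 1 lower without overlap in Cis_Stat6_DKO than in WT (median 1.63). The shares of all tested genes were 23.3% and 23.5%. Among the higher was S100a9, at 27.7 and 72.3 CPM in Cis_Stat6_DKO, 0.438 and 133 CPM in Cis_KO, and 1.35 and 1.24 CPM in WT. The lower was Csf3r, at 64.2 and 53.9 CPM in Cis_Stat6_DKO, 61.8 and 61.1 CPM in Cis_KO, and 116 and 113 CPM in WT. Part of the list was thus higher in both Cis_Stat6_DKO libraries than in WT. The summed level was highest in Cis_KO replicate 2, although Csf3r, Cxcr2 and Stfa2l1 were not highest there. The part of neutrophil RNA in the levels of Clec4e, Clec4d and Clec5a was not tested. Without any 1 of the WT or Cis_Stat6_DKO libraries Clec4e was no longer called in Cis_KO against WT, where its values then lay between -3.01 and -2.96. Without Cis_Stat6_DKO replicate 2, it was at 2.91 ± 0.30 against Cis_KO and was not called (adjusted p = 0.127), and against WT it was at -0.08 ± 0.31. A fit that leaves out a library takes the lone remaining one to vary like the other genotypes.

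Clec4d encodes MCL, also called Dectin-3, a partner of Mincle that binds the same mycobacterial glycolipid. It stood at 151 and 268 CPM in Cis_Stat6_DKO, at 34.2 and 20.7 CPM in Cis_KO, and at 97.3 and 95.9 CPM in WT. No genotypes overlapped, with Cis_KO lowest and Cis_Stat6_DKO highest. Clec4d rose 7.65-fold in Cis_Stat6_DKO relative to Cis_KO (2.94 ± 0.36, edgeR adjusted p = 0.0409). It was at -1.82 ± 0.35 in Cis_KO against WT, and at 1.12 ± 0.34 in Cis_Stat6_DKO against WT (adjusted p = 0.64). In Cis_Stat6_DKO against Cis_KO it was at 3.35 without Cis_KO replicate 1 and 2.61 without replicate 2. The call there was lost without any 1 of the other 4 libraries.

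Clec5a encodes MDL-1, which pairs with DAP12. It stood at 144 and 238 CPM in Cis_Stat6_DKO, at 46.9 and 24.1 CPM in Cis_KO, and at 51.1 and 61.9 CPM in WT. The Cis_Stat6_DKO libraries lay above all 4 others, and Cis_KO lay below WT with Cis_KO replicate 1 close to WT replicate 1. Clec5a was at 2.42 ± 0.39 in Cis_Stat6_DKO against Cis_KO and did not pass the threshold (edgeR adjusted p = 0.08). It passed with limma-voom (adjusted p = 0.0469) and with limma on log2(FPKM + 1) with a minimum of 0.5 FPKM (adjusted p = 0.0287). Its log2 fold change was 2.99 without Cis_KO replicate 1 and 2.01 without replicate 2. In Cis_Stat6_DKO against WT it was at 1.75 ± 0.38 (edgeR adjusted p = 0.305), and between 1.35 and 2.06 when 1 library was left out. Cis_KO against WT gave -0.67 ± 0.37, and -0.27 ± 0.28 without Cis_KO replicate 2.

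Clec4n, the gene of Dectin-2 described above, stood at 947 and 1159 CPM in Cis_Stat6_DKO, at 511 and 522 CPM in Cis_KO, and at 803 and 899 CPM in WT. The genotypes did not overlap and kept the order seen in Clec4d. Its changes were smaller, at 1.03 ± 0.19 in Cis_Stat6_DKO against Cis_KO (edgeR adjusted p = 0.104), -0.72 ± 0.19 in Cis_KO against WT and 0.31 ± 0.19 in Cis_Stat6_DKO against WT (adjusted p = 1). Without Cis_KO replicate 1 or 2 the first of these was at 1.02 and 1.03.

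Clec7a stood at 1795 and 1706 CPM in Cis_Stat6_DKO, at 1346 and 1087 CPM in Cis_KO, and at 983 and 1124 CPM in WT. The Cis_Stat6_DKO libraries were the highest, and those of Cis_KO and WT overlapped. Clec7a was at 0.53 ± 0.20 in Cis_Stat6_DKO against Cis_KO (adjusted p = 0.252), 0.21 ± 0.20 in Cis_KO against WT and 0.73 ± 0.20 in Cis_Stat6_DKO against WT (adjusted p = 0.535), all by edgeR. Without Cis_KO replicate 1 or 2 the first of these was at 0.70 and 0.37, and the last at 0.73 in both fits.

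Clec1b encodes CLEC-2, the platelet receptor of podoplanin, which signals through SYK. It stood at 4.90 and 4.32 CPM in Cis_Stat6_DKO, at 12.8 and 28.2 CPM in Cis_KO, and at 1.48 and 1.32 CPM in WT. These levels rest on 339 and 210 counts in Cis_Stat6_DKO, 821 and 1236 in Cis_KO, and 86 and 90 in WT. The genotypes did not overlap, with Cis_KO highest and WT lowest, and the Cis_KO libraries differed from each other more than those of either other genotype. Cis_KO was 14.7-fold higher than WT (3.87 ± 0.46), which is the difference that chose the gene. Cis_Stat6_DKO was at -2.15 ± 0.43 against Cis_KO and at 1.72 ± 0.43 against WT, in fits that share libraries with that choice. Without Cis_KO replicate 2, Clec1b was at 3.20 ± 0.31 in Cis_KO against WT and at -1.49 ± 0.31 in Cis_Stat6_DKO against Cis_KO.

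The summed level of 13 platelet markers without Clec1b was 6.86 and 11.9 CPM in Cis_Stat6_DKO, 1.94 and 7.97 CPM in Cis_KO, and 4.00 and 3.51 CPM in WT. Without Pf4, the most abundant of them, the other 12 summed to 1.16 and 5.10 CPM in Cis_Stat6_DKO, 1.64 and 6.76 CPM in Cis_KO, and 2.83 and 1.83 CPM in WT. Single markers differed in their order: Itga2b was highest in both Cis_KO libraries, at 0.203 and 0.913 CPM, and Ppbp, Gp1bb and Gp9 were highest in Cis_KO replicate 2, with 67, 42 and 12 counts. Treml1 and Gp1ba were lowest in both Cis_KO libraries, at 0.547 and 0 CPM and at 0.156 and 0 CPM. Pf4 was highest in both Cis_Stat6_DKO libraries, at 5.71 and 6.83 CPM. Of 8 platelet markers tested, 2 were higher and 2 lower without overlap in Cis_KO than in WT, beside 21.4% and 25.9% of all tested genes. Of the 13 markers 7 to 9 had a count in a library, and Gp6 and Tubb1 were at 0 in all 6. The part of platelet RNA in the Clec1b levels was not tested. The sum of 7 erythroid markers was 354 and 42.7 CPM in Cis_Stat6_DKO, 15.0 and 38670 CPM in Cis_KO, and 200 and 192 CPM in WT, so that Cis_KO replicate 1 had the least erythroid RNA of all. The sum of 14 dendritic cell markers, a cell type in which CLEC-2 has also been described in mice, was 123 and 98.2 CPM in Cis_Stat6_DKO, 162 and 206 CPM in Cis_KO, and 150 and 137 CPM in WT. Without Irf8, which held most of that sum, the other 13 summed to 19.5 and 21.1 CPM in Cis_Stat6_DKO, 21.5 and 49.9 CPM in Cis_KO, and 18.3 and 12.8 CPM in WT, the genotype order of Clec1b. Without Ccr7 as well the sums were 16.4 and 13.4 CPM in Cis_Stat6_DKO, 13.6 and 38.3 CPM in Cis_KO, and 9.68 and 10.7 CPM in WT. Cis_KO replicate 1 then fell within the range of Cis_Stat6_DKO, while both genotypes stayed above WT. These sums include Clec9a, at 2.58 and 1.48 CPM in Cis_KO, which overlaps Clec1b as described below. The part of dendritic cell RNA in the Clec1b levels was not tested.

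A further limit of Clec1b is that the last 474 bases of the gene, which spans chr6:129397297-129409335 on mm10, lie inside Clec9a (chr6:129408862-129424763), on the same strand. Clec9a, a dendritic cell receptor of dead cells, had 33 and 25 counts in Cis_Stat6_DKO, 165 and 65 in Cis_KO, and 3 and 11 in WT. These counts were fewer than those of Clec1b in every library and were highest in the same genotype. Clec9a was not called by edgeR, at -2.03 ± 0.89 in Cis_Stat6_DKO against Cis_KO (adjusted p = 0.286) and 4.22 ± 0.98 in Cis_KO against WT (adjusted p = 0.267). The sources do not state to which gene reads in the shared stretch were given.

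**Figure D3:**
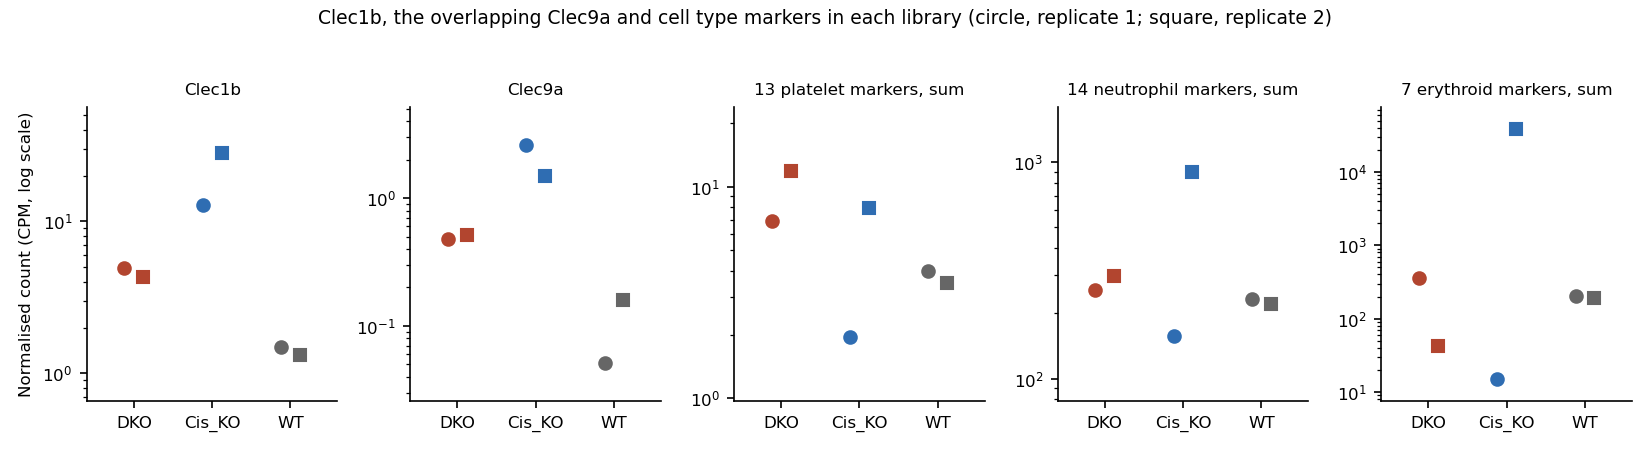
Normalised counts (CPM, log axis) in each library of Cis_Stat6_DKO, Cis_KO and WT for Clec1b, for Clec9a, and for the sums of platelet, neutrophil and erythroid markers. Clec1b and Clec9a are highest in both Cis_KO libraries, the platelet sum is lowest in Cis_KO replicate 1 (1.94 CPM) and the neutrophil and erythroid sums are highest in Cis_KO replicate 2 (901 and 38670 CPM).

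Clec12a, Clec4a2, Clec4a3 and Clec4a1 had smaller log2 fold changes in size than Clec4e, Clec4d and Clec1b in each comparison. In the main fit of all 6 libraries edgeR called none of these 4 genes in any comparison. With no filter it called Clec12a lower in Cis_KO against WT (edgeR adjusted p = 0.0475), beside 1021 of all genes. Clec12a and Clec4a1, at -0.82 and 1.03 in Cis_KO against WT, exceeded Clec4n and Clec7a there in size. Clec12a was at -0.86 in Cis_KO against WT without Cis_KO replicate 1, and at -0.79 without replicate 2. Clec12a, the gene of MICL, an ITIM-bearing receptor of uric acid crystals, stood at 48.1 and 43.9 CPM in Cis_Stat6_DKO, at 34.7 and 33.3 CPM in Cis_KO, and at 49.6 and 70.2 CPM in WT. Its genotypes did not overlap, with Cis_KO lowest, and it was at 0.44 ± 0.22 in Cis_Stat6_DKO against Cis_KO, -0.82 ± 0.22 in Cis_KO against WT and -0.38 ± 0.22 in Cis_Stat6_DKO against WT. Clec4a2, the gene of the ITIM-bearing receptor DCIR, stood at 95.6 and 75.9 CPM in Cis_Stat6_DKO, at 80.6 and 97.1 CPM in Cis_KO, and at 78.2 and 95.8 CPM in WT. Its genotypes overlapped throughout, and its 3 log2 fold changes lay between -0.05 and 0.03, each with an SE of 0.21.

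Clec4a3, a relative of Clec4a2 in the same gene group, stood at 129 and 136 CPM in Cis_Stat6_DKO, at 149 and 143 CPM in Cis_KO, and at 112 and 103 CPM in WT. WT was lowest and Cis_KO highest, with no overlap, at -0.14 ± 0.16 in Cis_Stat6_DKO against Cis_KO and 0.44 ± 0.16 in Cis_KO against WT. Clec4a1, another relative, stood at 1.98 and 1.25 CPM in Cis_Stat6_DKO, at 3.20 and 1.96 CPM in Cis_KO, and at 1.64 and 0.891 CPM in WT. With 61 to 205 counts it was barely detected, Cis_Stat6_DKO overlapped both other genotypes, and the SE of its log2 fold changes was 0.64. Clec4a1, Clec4a2 and Clec4a3 are close paralogs, and reads that fit more than 1 of them may have been split between them.

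**Figure D4:**
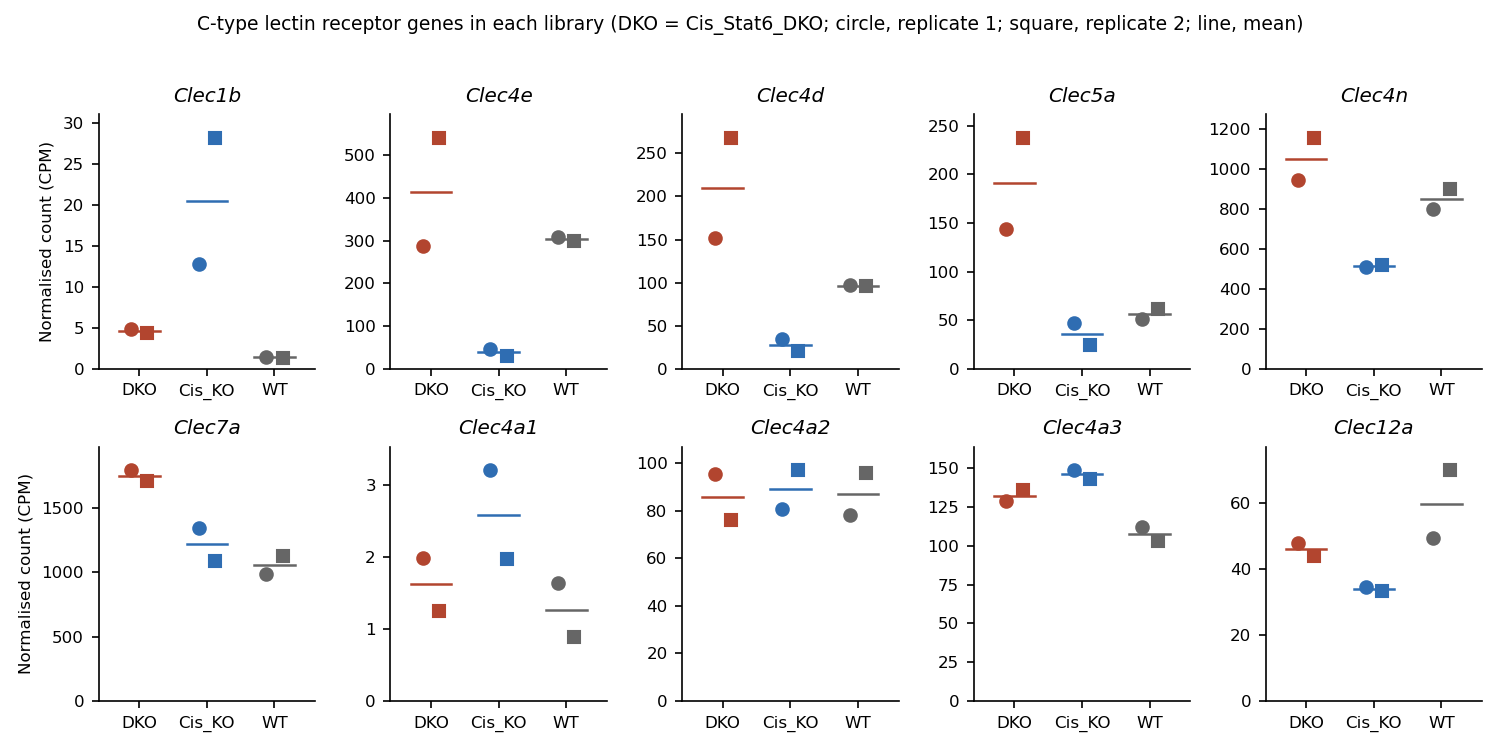
Normalised counts (CPM, each axis from 0) of the 10 receptor genes in each library, with Cis_Stat6_DKO left of Cis_KO and WT. Clec4e, Clec4d, Clec5a, Clec4n and Clec12a are lowest in both Cis_KO libraries, Clec1b is highest there, and the Clec4a2 libraries overlap between all genotypes at 75.9 to 97.1 CPM.

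Likeness among the members was measured as the root mean square distance of log2 CPM centred on each gene's mean, over the same 6 libraries. Clec4d lay equally near to Clec4e (0.47, Pearson r = 0.96) and to Clec5a (0.47, r = 0.93). Clec4a2 and Clec4a3 were the closest pair by distance (0.26), although their r was -0.16, and both changed little. These values share libraries and depth and are descriptions over 6 points in 3 genotypes.

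Among 9201 genes with a mean of at least 5 CPM, those near to Clec4e included Slc7a11, the gene of the cystine transporter xCT (0.23), and Gadd45a (0.25). Slc7a11 stood at 269 and 366 CPM in Cis_Stat6_DKO, at 37.9 and 18.5 CPM in Cis_KO, and at 280 and 238 CPM in WT. Nearest to Clec4d were Nlrc3 (0.16), Lacc1 (0.25) and Slc22a4 (0.27), and nearest to Clec5a were Plpp3 (0.16), Zranb3 (0.20) and Tle1 (0.29). Nearest to Clec1b were Eps8 (0.43), Igflr1 (0.47) and Epas1, the gene of the hypoxia-inducible factor HIF-2 alpha (0.53). Eps8 stood at 9.97 and 8.97 CPM in Cis_Stat6_DKO, at 28.7 and 38.9 CPM in Cis_KO, and at 5.02 and 4.27 CPM in WT.

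For the other members the nearest genes were Prdx1 (0.04), Ext1 (0.06) and Atg12 (0.08) for Clec4n, and P2ry13 (0.07), Snx9 (0.07) and Sptssa (0.09) for Clec7a. For Clec12a they were Glo1 (0.13), Bckdhb (0.14) and Lpin2 (0.14). For the Clec4a genes they were Pde4a (0.17), Bfsp1 (0.22) and Pars2 (0.26) beside Clec4a1, Rap2b (0.04), Megf9 (0.04) and Dync1li1 (0.05) beside Clec4a2, and Pvt1, Otud7b and Uros (0.06 each) beside Clec4a3. Of the 30 genes chosen by distance, 9 were also among the 3 with the highest Pearson r for their member.

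All 10 genes lie on chromosome 6, in mm10 coordinates of the deposited tables. Clec5a stands alone at chr6:40574894-40585821 on the minus strand. A group of 6 spans 368.0 kb (chr6:122921848-123289870) and runs, in order, through Clec4a1, Clec4a3, Clec4a2, Clec4n, Clec4d and Clec4e. A group of 3 spans 130.1 kb (chr6:129342691-129472779) with Clec12a, Clec1b and Clec7a. Clec4d on the plus strand and Clec4e on the minus strand face each other, with 6523 bases between their ends.

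Within the larger group the differences were not shared by all genes. From Clec4a1 to Clec4e in chromosomal order, the log2 fold changes in Cis_Stat6_DKO against Cis_KO were -0.68, -0.14, -0.05, 1.03, 2.94 and 3.43, so that the 3 genes at the Clec4e end were the ones that were higher. In Cis_KO against WT the values in the same order were 1.03, 0.44, 0.03, -0.72, -1.82 and -2.98. Within 100 kb of this group edgeR tested 5 other genes and called none in any comparison, beside 0.131% to 0.358% of all tested genes. One of these, Clec4b1, which lies between Clec4a3 and Clec4a2, was at -0.46 and 0.23 in the same 2 comparisons. Another, C3ar1, picked after its values were seen, was at 0.96 ± 0.66 and 2.03 ± 0.68. Around Clec12a, Clec1b and Clec7a edgeR tested 9 others and likewise called none. Of these, Gabarapl1 and Olr1, also picked after their values were seen, were at 0.91 and 0.73 in Cis_Stat6_DKO against Cis_KO. Both were lower in Cis_KO against WT, at -0.74 and -0.60. With so few of all genes called, nothing is read from the absence of calls among the neighbours. Clec12a and Clec7a on either side of Clec1b were at -0.82 and 0.21 in Cis_KO against WT, against 3.87 for Clec1b.

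**Figure D5:**
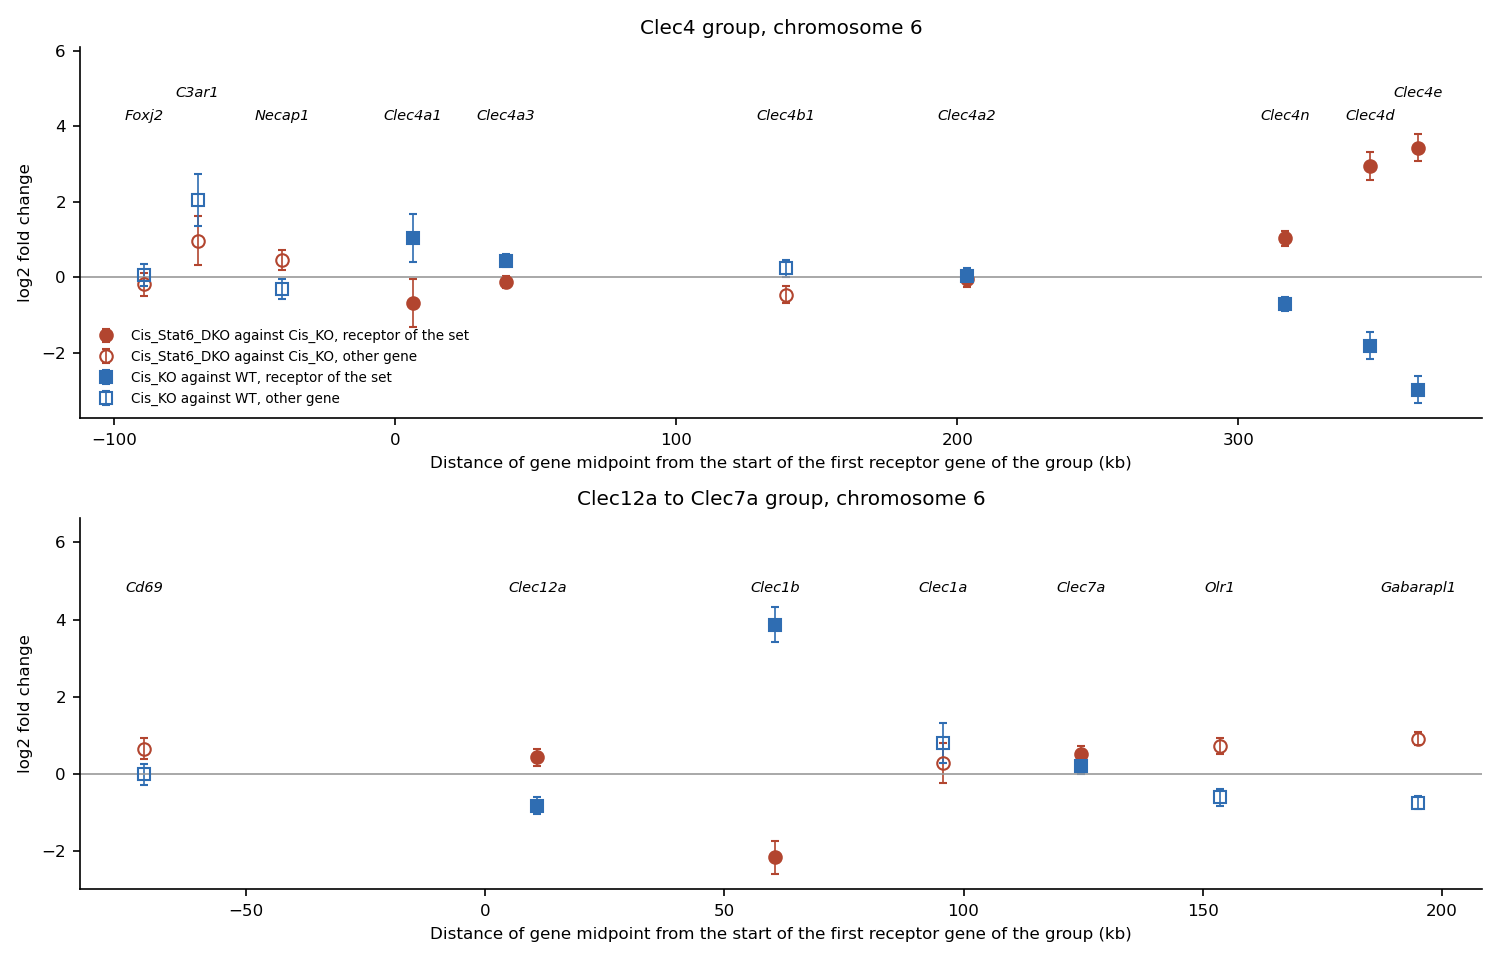
log2 fold changes with 1 SE of the receptor genes (filled) and of other genes with a mean of at least 1 CPM (open) within 100 kb of 2 groups on chromosome 6, by distance in kb from the start of the first receptor gene. The values of Cis_Stat6_DKO against Cis_KO climb to 3.43 at the Clec4e end of the Clec4 group, and Clec1b lies at 3.87 in Cis_KO against WT between Clec12a and Clec7a.

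Of 16 adaptor and kinase genes tested, edgeR called 0 in each of the 3 comparisons, with 3, 3 and 1 at an unadjusted p under 0.05 in Cis_Stat6_DKO against Cis_KO, Cis_KO against WT and Cis_Stat6_DKO against WT, and medians of -0.12, -0.07 and -0.10. Over all tested genes 18.3%, 11.1% and 5.36% had such a p in these comparisons, and 0.358%, 0.274% and 0.131% were called. Syk stood at 560 and 510 CPM in Cis_Stat6_DKO, at 590 and 583 CPM in Cis_KO, and at 573 and 558 CPM in WT. Card9 stood at 40.4 and 33.5 CPM in Cis_Stat6_DKO, at 47.3 and 32.1 CPM in Cis_KO, and at 41.6 and 41.9 CPM in WT. Both had log2 fold changes between -0.18 and 0.05. Other genes of the list, picked after their values were seen, differed more. Malt1, a partner of CARD9, stood at 79.8 and 110 CPM in Cis_Stat6_DKO, at 53.2 and 35.9 CPM in Cis_KO, and at 113 and 101.3 CPM in WT, so that both Cis_KO libraries were lowest (1.09 ± 0.26 in Cis_Stat6_DKO against Cis_KO, edgeR adjusted p = 0.154, and -1.27 ± 0.26 in Cis_KO against WT, adjusted p = 0.201). Hcst, the adaptor DAP10, stood at 10.4 and 12.5 CPM in Cis_Stat6_DKO, at 10.6 and 46.3 CPM in Cis_KO, and at 9.70 and 10.3 CPM in WT, and was high only in Cis_KO replicate 2.

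Fcer1g, the adaptor of Mincle, MCL and Dectin-2, stood at 221 and 299 CPM in Cis_Stat6_DKO, at 259 and 532 CPM in Cis_KO, and at 217 and 227 CPM in WT. Tyrobp, the adaptor of MDL-1, stood at 422 and 471 CPM in Cis_Stat6_DKO, at 446 and 852 CPM in Cis_KO, and at 334 and 417 CPM in WT. Both adaptors were highest in Cis_KO replicate 2, the library with 901 CPM of neutrophil markers, a cell type that also expresses them. That part was not tested. The 3 phosphatase genes were not called in any comparison, beside 0.131% to 0.358% of all tested genes. No member of that list had an unadjusted p under 0.05, beside 5.36% to 18.3% of all tested genes.

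Of 3 ligand genes, none was called by edgeR in any comparison, beside 0.131% to 0.358% of all tested genes. In Cis_Stat6_DKO against Cis_KO 1 of them had an unadjusted p under 0.05, beside 18.3% of all tested genes. This gene was Pdpn, which encodes podoplanin, the ligand of CLEC-2. Pdpn stood at 12.8 and 6.60 CPM in Cis_Stat6_DKO, at 0.188 and 1.96 CPM in Cis_KO, and at 2.97 and 2.84 CPM in WT. The genotypes did not overlap, and Pdpn was lowest in Cis_KO, where Clec1b was highest. Pdpn was at 3.19 ± 1.00 in Cis_Stat6_DKO against Cis_KO (adjusted p = 0.213).

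Of 13 genes known to be induced through receptors of this kind (cytokines, chemokines, the prostaglandin synthase Ptgs2 and the transcription factors Egr2 and Egr3), 10 were tested. In Cis_Stat6_DKO against Cis_KO edgeR called 2 of the 10 (Cxcl2 and Il1b, both higher), beside 0.358% of all tested genes. The list median was 3.50, against 0.05 for all tested genes. At an unadjusted p under 0.05 were 6 of the 10, beside 18.3% of all tested genes. The log2 fold changes were 4.38 ± 0.24 for Cxcl2 (edgeR adjusted p = 0.00374) and 3.86 ± 0.28 for Il1b (adjusted p = 0.00937). Cxcl2, a neutrophil-attracting chemokine, also fell in Cis_KO relative to WT as the only called gene of the list there, beside 0.274% of all tested genes. The list median was -1.31 there, against -0.05 for all tested genes. At an unadjusted p under 0.05 were 4 of the 10, beside 11.1% of all tested genes. Cxcl2 stood at 51.8 and 63.9 CPM in Cis_Stat6_DKO, at 2.55 and 3.01 CPM in Cis_KO, and at 26.0 and 26.3 CPM in WT. Il1b, the gene of interleukin 1 beta, stood at 84.7 and 64.5 CPM in Cis_Stat6_DKO, at 5.77 and 4.50 CPM in Cis_KO, and at 15.4 and 20.4 CPM in WT. These genes had the genotype order of Clec4d, with Cis_KO lowest and Cis_Stat6_DKO highest. In Cis_Stat6_DKO against WT edgeR called 0 of the 10, beside 0.131% of all tested genes, with a median of 1.17 against -0.0027. In that comparison 4 had an unadjusted p under 0.05, beside 5.36% of all tested genes. Many other receptors induce these genes as well, neutrophils also express Il1b and Cxcl2, and neither the part of these receptors nor that of neutrophil RNA was tested.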

How the data were processed

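Bulk RNA of 6 BALF cell libraries was analysed. The authors deposited, for each library, a raw read count per gene, not normalised, and the FPKM, a count divided by gene length and library total, per the file headers. The submitters' processing notes name build mm10; the aligner, counter and strandedness are not stated in these sources, which leaves counts of overlapping genes and paralogs uncertain.

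Counts were tested with edgeR 4.0.16 (R 4.3.3): all 6 libraries in 1 fit by genotype, TMM factors of 0.863 to 1.08, filterByExpr, two-sided quasi-likelihood F test, Benjamini-Hochberg adjusted p under 0.05 over 16765 genes ("called"). The SE is the log2 fold change over the square root of F. The common coefficient of variation was 50.3%, on 3 residual degrees of freedom, and exceeds counting error for every member, the lowest count being 61. Alternatives used DESeq2 1.42.0, limma 3.58.1 (voom, or trend on log2 FPKM), other scalings and filters, a replicate block and each library left out. Promoters were matched by symbol in a RefSeq table, for 9 of 10 genes.

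The members and all gene lists were chosen with earlier results of these data known. Named were all members, Cish, Stat6, called genes of a list, Fcer1g, Tyrobp, Syk, Card9, Pdpn, and the 3 genes nearest to each member, of which 1 is not reported here; Clec9a and Clec4b1 were named for their position.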

Additional observations from a re-analysis of the deposited data

How the results depend on the processing

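No log2 fold change of a member that was called, and none of any other named gene that was called, turned its sign under an alternative. In Cis_KO against WT the 2 called members, beside 46 of all genes, became 4 with DESeq2 (550 of all genes) and 4 with no filter (1021). They became 1 with limma-voom (37) and 1 with library size alone (26). The count was 0 with only the groups compared (6), with the replicate block (24), or with log2(FPKM + 1) and no minimum (2). Fits that leave out 1 library did not all keep these calls, nor those of the next comparison. The number called changed there over all genes as well as among the members, so no member count is read from those fits. In Cis_Stat6_DKO against Cis_KO the 2, beside 60 of all genes, became 5 with DESeq2 (1552 of all genes) and 5 with no filter (1840). They became 3 with limma-voom (62) and 3 with log2(FPKM + 1) and a minimum of 0.5 (191), with Clec5a added. With library size alone 1 was called (29). The count was 0 with only the groups compared (5), with the replicate block (28), or with log2(FPKM + 1) and no minimum (2). In Cis_Stat6_DKO against WT the 0, beside 22 of all genes, became 3 with DESeq2 (323 of all genes) and 3 with no filter (385). It became 1 with only the groups compared (277). The cause of these changes was not tested.

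The log2 fold change of Clec4e in Cis_Stat6_DKO against Cis_KO lay between 2.91 and 3.81 in 18 alternatives, and that of Clec4d between 2.47 and 3.35. That of Clec1b in Cis_KO against WT lay between 1.77 and 4.32. The sign of Clec4a2 was unstable in each comparison, and that of Clec4e and Clec4a1 in Cis_Stat6_DKO against WT. Leaving out Cis_KO replicate 1 moved the median of all genes by -0.18 in Cis_KO against WT and by 0.16 in Cis_Stat6_DKO against Cis_KO. Libraries with the same replicate number did not deviate together over all genes (correlations of -0.07 to 0.01). These values cannot tell whether such libraries were collected or processed together, and the labels state no pairing. Depth limits Clec9a in WT, with 3 and 11 counts, Pdpn in Cis_KO replicate 1, with 12 counts, and most platelet markers. It also limits Il10 of the target list, with 0 and 0 counts in Cis_KO and 0 and 8 in Cis_Stat6_DKO. The spread between 2 libraries limits the 10 members.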

Other observations

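A list of 35 other lectin genes held C-type lectins, relatives listed by name, and the galectin gene Lgals3. Of the 35, 22 were tested and edgeR called 0 in each comparison, beside 0.131% to 0.358% of all tested genes. The numbers at an unadjusted p under 0.05 were 6 in Cis_Stat6_DKO against Cis_KO, 4 in Cis_KO against WT and 4 in Cis_Stat6_DKO against WT, beside 18.3%, 11.1% and 5.36% of all tested genes. The 3 described here were picked after their values were seen. Ly75, the gene of the endocytic receptor DEC-205, stood at 457 and 407 CPM in Cis_Stat6_DKO, at 182 and 146 CPM in Cis_KO, and at 370 and 421 CPM in WT. Like Clec4e, it was lowest in both Cis_KO libraries, with a log2 fold change of 1.40 ± 0.20 in Cis_Stat6_DKO against Cis_KO (edgeR adjusted p = 0.058). Klrb1b, an inhibitory receptor gene of natural killer cells, stood at 23.5 and 19.5 CPM in Cis_Stat6_DKO, at 5.94 and 8.49 CPM in Cis_KO, and at 4.49 and 6.04 CPM in WT, with the Cis_Stat6_DKO libraries above all others (2.03 ± 0.32 against WT, adjusted p = 0.126). Clec16a, listed for its name, stood at 59.97 and 50.6 CPM in Cis_Stat6_DKO, at 137 and 112 CPM in Cis_KO, and at 112 and 118 CPM in WT. It was lowest in Cis_Stat6_DKO (-1.17 ± 0.19 against Cis_KO, edgeR adjusted p = 0.085).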
